A study of Mus musculus with 9 samples.

Results

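The HMGA and HMGB architectural proteins are represented here by 5 genes, Hmga1, Hmga2, Hmgb1, Hmgb2 and Hmgb3, out of 23279 gene rows measured. The genes were chosen by symbol, and Hmga2 was selected on its lower FPKM in both mutant groups, so its levels against wild type are described and not tested. FPKM counts sequenced fragments per transcript length and per library size. All 5 had a mean of at least 1 raw FPKM and were among the 10878 genes tested. FPKM is a value per length, so levels can be set side by side between genes.

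The RNA came from primary mouse pro-B cell cultures in 3 groups of 3 libraries. The Ts1Rhr group came from mice on an FVB × C57BL/6 F1 background that carry an extra copy of a segment of chromosome 16. The HMGN1_OE group came from C57BL/6 mice that overexpress Hmgn1, and neither the promoter nor the species of the transgene is given in the sources used here. The WT group is described as wild-type littermates, with no background named, so strain and genotype cannot be told apart between the mutant groups and possibly not against WT. In all groups, bone marrow from mice aged 6 to 8 weeks was grown with interleukin-7 in methylcellulose, and the colonies were pooled after 7 days. The cell type field names Ts1Rhr for all 9 samples, and the groups follow the genotype descriptions instead. The samples are numbered as biological replicates without naming animals, so a p-value here speaks only of the spread among these libraries, which may be technical.

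HMG proteins are among the most abundant proteins of chromatin that are not histones. HMGA proteins grip the minor groove of AT-rich DNA through short AT-hooks. HMGB proteins bend DNA sharply through paired HMG boxes and assist transcription factors, nucleosome remodelling and, in lymphocytes, the RAG recombinase that cuts antigen receptor genes. Hmga2 is best known from embryonic and fetal stem cells and from mesenchymal tissues and tumours, and its messenger RNA is a classic target of the let-7 microRNAs.

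Facts that touch all libraries are given first. Hmgn1, a nucleosome-binding protein gene in the triplicated segment, stood at 127.3, 121.8 and 115.3 normalised FPKM in Ts1Rhr, at 76.85, 101.1 and 75.85 in HMGN1_OE and at 74.78, 71.46 and 46.87 in WT. Its log2 fold change was 0.94 in Ts1Rhr against WT (limma, adjusted p = 0.0909), and on raw FPKM 1.03 (limma, adjusted p = 0.00923), a call that ended without WT replicate 1, WT replicate 3 or Ts1Rhr replicate 3. In HMGN1_OE against WT it was 0.41 (limma, adjusted p = 0.54), so the overexpression did not stand out in this mouse row. Pro-B markers summed to 3555 to 4193 normalised FPKM in Ts1Rhr, 4975 to 5431 in HMGN1_OE and 2421 to 4114 in WT. Transcripts of other cells were also abundant, with myeloid markers between 13140 and 16410 in Ts1Rhr, 14260 and 49730 in HMGN1_OE, and 20530 and 70330 in WT. Most of these sums came from Lyz2, at 9721 to 13530 in Ts1Rhr, 10890 to 39540 in HMGN1_OE and 15330 to 56080 in WT. The sums therefore do not give the share of myeloid cells. Ts1Rhr replicate 3 was male by its Xist level of 0.443 raw FPKM and its Ddx3y level of 41.8, and the other libraries were female. FPKM keep no counts, so the sequencing depth is unknown.

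The family spanned a wide range of expression in these cultures. In WT, Hmgb1 averaged 325.8 ± 83.6 normalised FPKM (SD, n = 3) and Hmgb2 244.6 ± 66.0, which ranked them 207 and 280 among the 10878 tested genes. Hmgb3 averaged 32.1 ± 9.35 and Hmga1 27.8 ± 3.26 there. Hmga2 came last, at 9.14 ± 0.473, with rank 6348. The order of the means was Hmgb1, Hmgb2, Hmgb3, Hmga1, Hmga2 in all 3 groups. The ranges of Hmgb1 and Hmgb2 overlapped within each group, although Hmgb1 was above Hmgb2 within every library. Those of Hmgb3 and Hmga1 overlapped in WT but not in Ts1Rhr or HMGN1_OE. The ranges of Hmgb2 and Hmgb3, and of Hmga1 and Hmga2, did not overlap in any group.

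**Figure D1:**
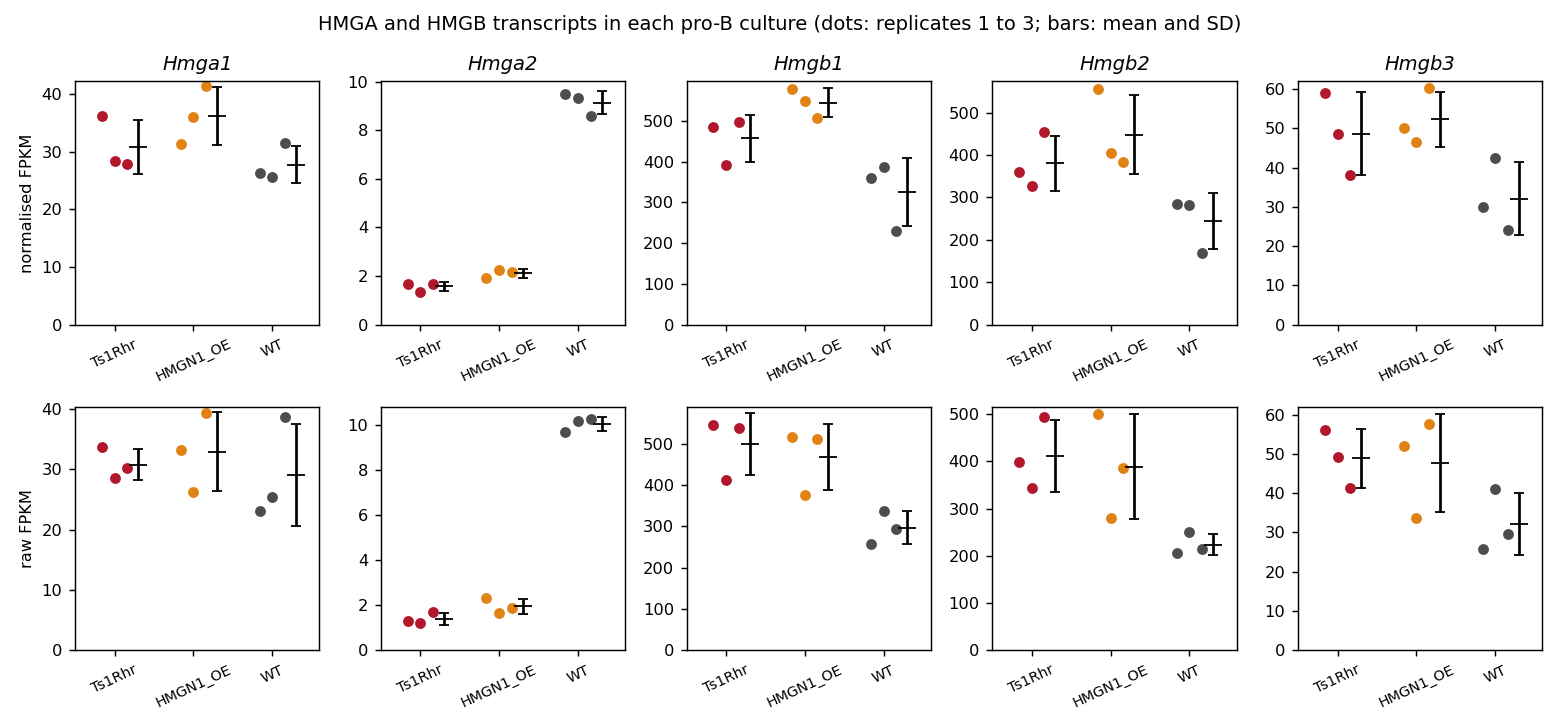
FPKM of Hmga1, Hmga2, Hmgb1, Hmgb2 and Hmgb3 in each library, as dots for replicates 1 to 3 of Ts1Rhr, HMGN1_OE and WT, in the normalised table (upper row) and the raw table (lower row), with bars for the mean and SD. Hmga2 lies at 1.35 to 2.25 normalised FPKM in the mutant libraries and at 8.60 to 9.50 in WT, whereas the Hmgb genes lie higher in the mutant groups than in WT on average.

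Hmga2 was low in every mutant library and moderate in every WT library. It stood at 1.69, 1.35 and 1.68 normalised FPKM in Ts1Rhr, at 1.91, 2.25 and 2.17 in HMGN1_OE and at 9.50, 9.31 and 8.60 in WT. No mutant library came near the lowest WT library, and within WT the values lay close together. Such a separation with the mutant group lower was seen for 8.43% of all tested genes in Ts1Rhr and 0.8% in HMGN1_OE, and nothing is read from it since Hmga2 was selected on this contrast. In bulk RNA, fewer cells of a type and less RNA per cell cannot be told apart. The log2 difference was -2.55 ± 0.31 (SE) in Ts1Rhr against WT, a ratio of 0.171, and -2.12 ± 0.31 in HMGN1_OE against WT, a ratio of 0.230. Of the 10878 tested genes, 41 had a lower log2 difference than Hmga2 in Ts1Rhr and 49 in HMGN1_OE, and these comparisons share the WT libraries. Hmga2 stood at rank 10406 in Ts1Rhr and 10007 in HMGN1_OE, near the bottom of what was tested, against 6348 in WT.

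The difference did not hinge on the scaling. On raw FPKM, Hmga2 was listed at 1.30, 1.18 and 1.69 in Ts1Rhr, at 2.31, 1.65 and 1.88 in HMGN1_OE and at 9.66, 10.1 and 10.3 in WT. Its ratio to WT there was 0.146 in Ts1Rhr and 0.200 in HMGN1_OE. Without the male Ts1Rhr replicate 3, the raw log2 difference in Ts1Rhr was -2.92.

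Between the mutant groups, Hmga2 was tested, since the choice of genes did not use that contrast. On normalised FPKM, the 3 Ts1Rhr libraries all lay below the 3 HMGN1_OE libraries, a separation in this direction that 6.6% of all tested genes showed. The log2 fold change in Ts1Rhr against HMGN1_OE was -0.43, with a 95% interval from -1.07 to 0.22 (limma, adjusted p = 0.988). On raw FPKM the groups overlapped and the log2 fold change was -0.46 (limma, adjusted p = 0.58). A difference of this size was not resolved with 3 libraries a group.

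The HMGA pair can also be described by shares, which restate the Hmga2 contrast that chose this gene and carry no test. Hmga2 made up 4.45%, 4.52% and 5.69% of the summed Hmga1 and Hmga2 normalised FPKM in Ts1Rhr, and 5.75%, 5.88% and 4.97% in HMGN1_OE, against 26.6%, 26.7% and 21.4% in WT. On raw FPKM the shares were 3.72%, 3.99% and 5.30% in Ts1Rhr, 6.49%, 5.92% and 4.56% in HMGN1_OE and 29.5%, 28.5% and 21.0% in WT. Every mutant share lay below every WT share in both tables.

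Hmga1, the HMGA gene that most dividing cells use, was not set apart from WT in this way. It stood at 36.3, 28.5 and 27.9 normalised FPKM in Ts1Rhr, at 31.3, 36.0 and 41.4 in HMGN1_OE and at 26.2, 25.6 and 31.5 in WT. The mutant ranges overlapped that of WT. The log2 fold change was 0.15 in Ts1Rhr against WT, with a 95% interval from -0.34 to 0.63 (limma, adjusted p = 0.748). In HMGN1_OE against WT it was 0.38, with an interval from -0.11 to 0.87 (limma, adjusted p = 0.524).

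The level of Hmga1 carries an uncertainty. Of all 50-base windows of its transcript, 69.1% also occur in transcripts of other genes, so how the counting divided its reads is uncertain, and so are the shares of Hmga2 in the pair.

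Of the 50-base windows of Hmga2, 4.36% were found in annotated transcripts of other genes. A separate row, Hmga2-ps1, is a pseudogene by its name. The annotation searched held no transcript under that name, so windows shared with this row could not be counted. Hmga2-ps1 was listed at 0.495, 1.07 and 0.861 normalised FPKM in Ts1Rhr, at 1.43, 2.61 and 1.74 in HMGN1_OE and at 3.81, 2.19 and 2.11 in WT. It thus lay below WT in every Ts1Rhr library, a separation that 8.43% of all tested genes showed, and overlapped WT in HMGN1_OE. On raw FPKM the HMGN1_OE libraries, at 1.78, 1.85 and 1.40, also lay below the lowest WT library, at 2.18, and nothing is read from this. The log2 fold change of Hmga2-ps1 in Ts1Rhr against WT was -1.76 (limma, adjusted p = 0.0971), and on raw FPKM -2.04 (limma, adjusted p = 0.0311). The raw call ended without WT replicate 1, WT replicate 3, Ts1Rhr replicate 2 or Ts1Rhr replicate 3. In HMGN1_OE against WT it was -0.48 (limma, adjusted p = 0.701), and on raw FPKM -0.74 (limma, adjusted p = 0.399). Whether its reads came from the pseudogene or from Hmga2 was not tested.

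The genes whose pattern over the libraries was most like that of Hmga2 are given next. Likeness was measured as the root mean square difference between mean-centred log2(raw FPKM + 0.1) values over the 9 libraries. The 5 nearest genes were Bmpr1a, a bone morphogenetic protein receptor, at 0.41, Lox, which cross-links collagen, at 0.42, Timp3, an inhibitor of matrix proteases, at 0.44, Pdgfra, a growth factor receptor of mesenchymal cells, at 0.51, and Tnc, a matrix glycoprotein, at 0.52. The spread of Hmga2 itself on this measure was 1.23. Like the shares, this likeness restates the contrast that chose Hmga2, so genes near it were bound to be low in both mutant groups. Of these 5, Bmpr1a, Lox and Timp3 were also among the nearest 5 on normalised FPKM.

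A list of stromal and mesenchymal markers, which also holds Lox and Pdgfra, was examined beside them. Of its 25 genes, 14 were tested, 7 fell in Ts1Rhr against WT and 6 fell in HMGN1_OE against WT (limma, adjusted p under 0.05), and none rose in either. Over all tested genes, 0.147% fell in Ts1Rhr and 0.0827% in HMGN1_OE. Single libraries carried much of this. Leaving out WT replicate 2 gave 4 calls in Ts1Rhr, WT replicate 3 gave 1, Ts1Rhr replicate 2 gave 2, and the male Ts1Rhr replicate 3 gave 3. In HMGN1_OE, 0 were called when WT replicate 2 or 3 was left out, and 2 when HMGN1_OE replicate 1 was. On raw FPKM, 10 fell in Ts1Rhr, where 4.56% of all tested genes did, and 2 in HMGN1_OE, where 0.0368% did. The 10 became 0 without WT replicate 1, WT replicate 3 or Ts1Rhr replicate 3 and 1 without Ts1Rhr replicate 2. The 2 became 0 without any 1 WT library, 1 without HMGN1_OE replicate 1 and 4 without Ts1Rhr replicate 1. The median log2 fold change of the 14 genes was -2.41 in Ts1Rhr and -2.44 in HMGN1_OE, beside 0.12 and 0.21 over all tested genes. Lox stood at 4.20, 2.83 and 2.65 normalised FPKM in Ts1Rhr, 2.95, 2.59 and 2.07 in HMGN1_OE and 12.9, 12.2 and 9.20 in WT, and fell in both mutant groups (limma, adjusted p = 0.00884 in Ts1Rhr and 0.00646 in HMGN1_OE). The call in Ts1Rhr ended without any 1 WT library or Ts1Rhr replicate 2 or 3, and that in HMGN1_OE without WT replicate 2 or 3. Sfrp2, a secreted Wnt antagonist, averaged 1.60 ± 1.74 in Ts1Rhr, 1.93 ± 0.708 in HMGN1_OE and 24.5 ± 4.60 in WT. Sparc, a collagen-binding matrix protein, averaged 1.70 ± 1.19 in Ts1Rhr, 1.67 ± 0.789 in HMGN1_OE and 12.9 ± 3.93 in WT.

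These genes are not typical of B-lineage cells. None of the 25 markers was at 0 in all libraries, and 11 had a mean under 1 FPKM. Most of their summed FPKM came from Vim, an intermediate filament gene that leukocytes also express, which averaged 982.6 ± 291 in Ts1Rhr, 1646 ± 610 in HMGN1_OE and 2041 ± 944 in WT. Without Vim, the sum of the list ranged from 20.8 to 48.5 normalised FPKM in Ts1Rhr, from 23.8 to 46.1 in HMGN1_OE and from 114 to 167 in WT. The part of mesenchymal cells in the Hmga2 difference was not tested.

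**Figure D2:**
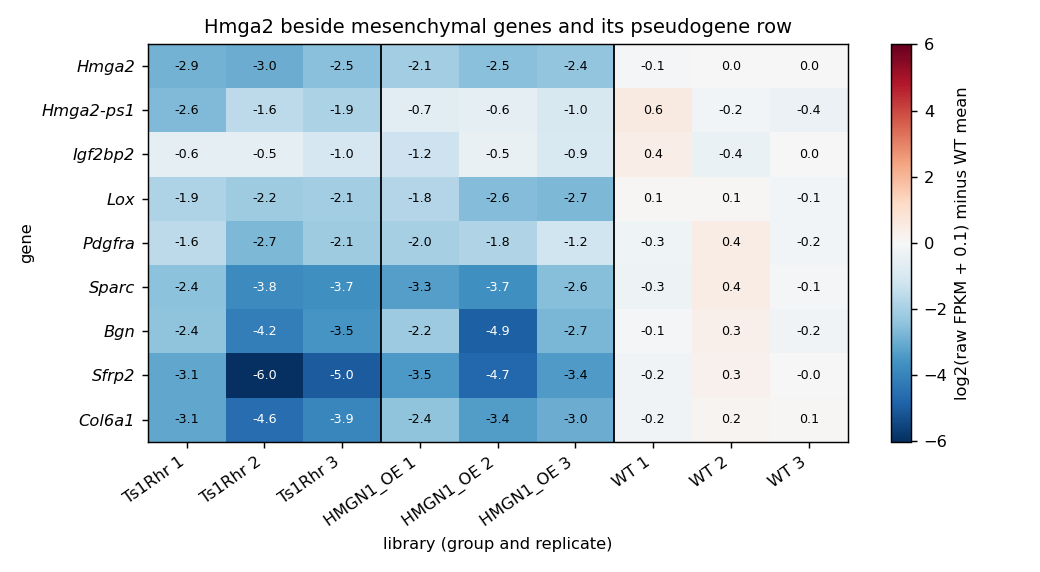
Each cell gives log2(raw FPKM + 0.1) minus the WT mean of that gene, for 9 genes in rows and the 9 libraries in columns, Ts1Rhr first, HMGN1_OE next and WT last. Hmga2 lies below WT in every mutant library, as do Lox, Pdgfra, Sparc, Bgn, Sfrp2 and Col6a1. The mesenchymal genes shown are a choice from the 14 tested of their list. Of those 14, 1 had a raw log2 fold change above 0 in Ts1Rhr and 2 did in HMGN1_OE.

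The let-7 system was examined because Hmga2 is among its best known targets. LIN28 proteins block the maturation of let-7 in embryonic and fetal cells. The seed of let-7 (bases 2 to 8, in capitals) pairs with the capitals in 4 stretches of the Hmga2 3′ UTR, shown 5′ to 3′ and named by the position of their first capital, counted from 1 at the start of the UTR in the longest coding transcript of GENCODE.
mmu-let-7a-5p: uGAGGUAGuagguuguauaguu
Hmga2, position 58: ccgacattcaatttCTACCTCag
Hmga2, position 1295: cccactcctcaataCTACCTCtg
Hmga2, position 1733: tgatttgcaaggaaCTACCTCca
Hmga2, position 2591: atcaaaacacactaCTACCTCtt
Hmga1 held 1 such match in its 3′ UTR, and Hmgb1, Hmgb2 and Hmgb3 held 0. A match is a stretch of letters and not a measured site, and microRNA levels were not measured in these libraries.

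The LIN28B and let-7 list gave 0 calls on normalised FPKM and 1 on raw FPKM in Ts1Rhr, where 4.29% of all tested genes rose and 8.85% passed in either direction. Of 20 genes listed, 13 were tested in Ts1Rhr and HMGN1_OE against WT. The raw call was Ccnd2, a D-type cyclin, which rose by 0.78 in log2 in Ts1Rhr (limma, adjusted p = 0.0466) and lost the call on leaving out any 1 library except HMGN1_OE replicate 3. Lin28b was listed at 0 raw FPKM in all libraries except HMGN1_OE replicate 2, at 0.0561, and Igf2bp1 and Trim71, which mark fetal and embryonic cells, were at 0 in all. Lin28a was above 0 in Ts1Rhr replicates 1 and 2 and WT replicate 2, at most 0.087. Igf2bp3 of the same list averaged 1.63 raw FPKM in Ts1Rhr, 2.18 in HMGN1_OE and 1.14 in WT. Its normalised log2 fold changes against WT were 0.93 and 1.31 (limma, adjusted p = 0.306 and 0.339). Igf2bp2, an RNA-binding protein gene known as an HMGA2 target in other tissues and named here after its values were seen, stood at 7.18, 7.38 and 5.35 raw FPKM in Ts1Rhr, 4.54, 7.80 and 5.69 in HMGN1_OE and 14.2, 8.12 and 11.03 in WT. The raw mutant values all lay below WT, but on normalised FPKM both mutant ranges overlapped that of WT, so nothing is read from the raw separation. Its log2 fold change was -0.54 in Ts1Rhr (limma, adjusted p = 0.396) and -0.69 in HMGN1_OE (limma, adjusted p = 0.454).

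A further list held 15 genes linked to HMGA2 in other tissues, of which 11 were tested. None passed on normalised FPKM in either mutant group against WT. Ccna2, the cyclin gene whose repression HMGA2 is known to relieve, averaged 109.4 ± 13.2 normalised FPKM in Ts1Rhr, 122.7 ± 5.15 in HMGN1_OE and 71.99 ± 16.4 in WT. Its log2 fold change of 0.62 in Ts1Rhr did not pass (limma, adjusted p = 0.198), while on raw FPKM it was 0.71 (limma, adjusted p = 0.0355). Ercc1, a subunit of a DNA repair nuclease, fell by 0.73 in log2 on raw FPKM in Ts1Rhr (limma, adjusted p = 0.0374). On raw FPKM in Ts1Rhr against WT, 4.29% of all tested genes rose and 4.56% fell. The Ccna2 call ended without WT replicate 1, WT replicate 3 or any 1 Ts1Rhr library, and the Ercc1 call without any 1 WT or Ts1Rhr library.

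The HMGB genes lay on the other side of WT. Hmgb1, the most abundant of them and also an alarm signal when released from cells, stood at 484.8, 390.5 and 496.3 normalised FPKM in Ts1Rhr, at 577.8, 548.2 and 506.9 in HMGN1_OE and at 360.6, 386.3 and 230.4 in WT. All mutant libraries lay above all WT libraries, narrowly so in Ts1Rhr. The log2 fold change was 0.52 in Ts1Rhr against WT, a ratio of 1.43 with a 95% interval from 0.902 to 2.27 (limma, adjusted p = 0.368). In HMGN1_OE against WT it was 0.77, a ratio of 1.71 with an interval from 1.08 to 2.71 (limma, adjusted p = 0.358).

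Hmgb2, which is tied to proliferating and lymphoid cells, followed Hmgb1 closely. It stood at 360.8, 326.8 and 453.8 normalised FPKM in Ts1Rhr, at 555.3, 405.3 and 383.8 in HMGN1_OE and at 284.1, 281.4 and 168.4 in WT. Again no mutant library reached down into WT. The log2 fold changes were 0.66 in Ts1Rhr (ratio 1.58, limma, adjusted p = 0.263) and 0.89 in HMGN1_OE (ratio 1.86, limma, adjusted p = 0.32).

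Hmgb3, an X-linked gene studied in blood stem and progenitor cells, was expressed at a far lower level. It stood at 59.12, 48.62 and 38.03 normalised FPKM in Ts1Rhr, at 50.1, 46.6 and 60.2 in HMGN1_OE and at 29.9, 42.4 and 24.1 in WT. The HMGN1_OE libraries lay above WT, whereas the male Ts1Rhr replicate 3, the lowest of its group, lay within the WT range. The log2 fold change was 0.61 in Ts1Rhr against WT (limma, adjusted p = 0.215), or 0.78 without replicate 3 (limma, adjusted p = 0.212), and 0.73 in HMGN1_OE (limma, adjusted p = 0.324).

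On normalised FPKM, then, none of Hmga1, Hmgb1, Hmgb2 and Hmgb3 passed the threshold against WT, in Ts1Rhr, where 0.57% of all tested genes passed, or in HMGN1_OE, where 0.0919% did. At an unadjusted p under 0.05 there was 1 of these 4 in Ts1Rhr, Hmgb3, and 3 in HMGN1_OE, Hmgb1, Hmgb2 and Hmgb3, where 19.5% of all tested genes in Ts1Rhr and 11.7% in HMGN1_OE had such a p. Libraries did not overlap, with the mutant group higher, for 2 of these 4 in Ts1Rhr against a background of 21.7%, and for 3 of 4 in HMGN1_OE against 16.6%. The median gene lay 0.12 above WT in Ts1Rhr and 0.21 above WT in HMGN1_OE on this table. The HMGB estimates were larger than that general shift, but most of their intervals included it, so a difference beyond the shift was mostly not resolved. Only the interval of Hmgb2 in HMGN1_OE, from 0.22 to 1.57, left it out, and narrowly so.

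On raw FPKM, where the standard errors of the HMGB log2 fold changes were smaller and the median gene lay 0.01 above WT in both mutant groups, Hmgb1 and Hmgb2 rose in Ts1Rhr. Hmgb1 stood at 547.3, 412.3 and 538.8 raw FPKM in Ts1Rhr, 516.9, 376.7 and 512.1 in HMGN1_OE and 258.4, 338.6 and 294.8 in WT. The ratio in Ts1Rhr against WT was 1.68 (limma, adjusted p = 0.0399, against 0.0399 to 0.442 over the settings tried). For Hmgb2 the raw ratio was 1.83 (limma, adjusted p = 0.0394, against 0.0394 to 0.335 over the settings tried). These were 2 of the 4 genes, where 4.29% of all tested genes rose on raw FPKM and 8.85% passed in either direction. Raw values did not overlap, with the mutant group higher, for 3 of the 4 genes in Ts1Rhr against a background of 19.1%, and for 2 of the 4 in HMGN1_OE against 9.81%. Leaving out any 1 of the 3 Ts1Rhr or 3 WT libraries ended both calls, with adjusted p from 0.0507 to 0.171 for Hmgb1 and from 0.0549 to 0.164 for Hmgb2 (limma). In HMGN1_OE against WT the raw ratios were 1.57 for Hmgb1 (limma, adjusted p = 0.277) and 1.70 for Hmgb2 (limma, adjusted p = 0.273), and 0.0368% of genes passed.

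**Figure D3:**
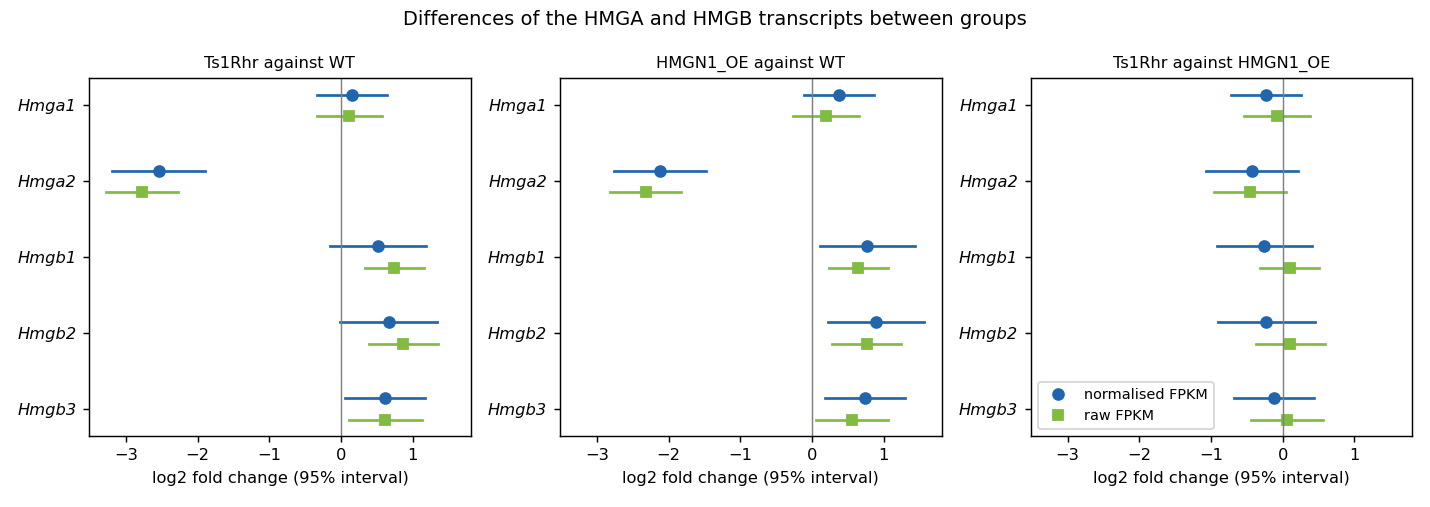
Log2 fold changes with 95% intervals for the 5 genes in Ts1Rhr against WT, HMGN1_OE against WT and Ts1Rhr against HMGN1_OE, on normalised FPKM (circles) and raw FPKM (squares). Hmga2 lies between -2.78 and -2.12 against WT, the Hmgb genes lie between 0.52 and 0.89, and all intervals in the contrast of the mutant groups include 0.

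The mutant groups were then compared with each other. Of the 5 genes, 0 passed in Ts1Rhr against HMGN1_OE, and 0 at an unadjusted p under 0.05, where 0.0% of all tested genes passed and 475 had an unadjusted p under 0.05 (limma). The log2 fold change of Hmgb1 was -0.26 with an interval from -0.92 to 0.41, that of Hmgb2 -0.23 with an interval from -0.90 to 0.44, and that of Hmgb3 -0.12 with an interval from -0.68 to 0.44 (limma, adjusted p = 0.988, 0.988 and 0.997). The Hmgb1 libraries did not overlap on normalised FPKM, with Ts1Rhr lower, and together with Hmga2 this was so for 2 of the 5 genes against a background of 6.6%. The intervals leave room for differences as large as those against WT. On raw FPKM the signs of all 3 turned, with values of 0.10, 0.11 and 0.059.

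The proportions among the HMGB genes varied little. Hmgb1 made up 48.8% to 54.8% of the summed normalised FPKM of the 3 genes over all 9 libraries, Hmgb2 39.6% to 46.9% and Hmgb3 3.85% to 6.54%. The ratio of Hmgb2 to Hmgb1 lay between 0.744 and 0.914 in Ts1Rhr, between 0.739 and 0.961 in HMGN1_OE and between 0.728 and 0.788 in WT, so the groups overlapped. The deposited levels of Hmgb1 carry a further uncertainty, since 40.9% of its 50-base windows also occur in transcripts of 132 other genes. For Hmgb2 the share was 21.9% and for Hmgb3 34.2%.

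The HMGB promoters shared a feature that the choice of genes did not use. CCAAT boxes bind the factor NF-Y and are common in genes of the cell division cycle. The promoters below run from 250 bases before to 50 bases after the RefSeq start on GRCm38.p6, which is not the build of the deposited tables, with CCAAT matches in capitals, and that of Hmga2 is shown for contrast.
Hmgb1, chr5:149053008-149053307, minus strand: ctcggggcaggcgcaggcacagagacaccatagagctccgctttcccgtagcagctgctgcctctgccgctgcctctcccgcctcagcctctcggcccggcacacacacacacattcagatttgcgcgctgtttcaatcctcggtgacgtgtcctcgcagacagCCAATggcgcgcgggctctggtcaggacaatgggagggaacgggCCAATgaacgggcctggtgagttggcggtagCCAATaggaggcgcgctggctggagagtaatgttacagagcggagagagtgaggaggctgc
Hmgb2, chr8:57511593-57511892, plus strand: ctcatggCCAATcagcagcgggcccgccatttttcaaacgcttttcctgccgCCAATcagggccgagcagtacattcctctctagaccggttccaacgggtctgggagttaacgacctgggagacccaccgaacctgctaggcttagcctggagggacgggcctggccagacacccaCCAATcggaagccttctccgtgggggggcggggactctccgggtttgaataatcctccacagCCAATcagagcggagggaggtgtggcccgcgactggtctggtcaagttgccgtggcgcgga
Hmgb3, chrX:71555667-71555966, plus strand: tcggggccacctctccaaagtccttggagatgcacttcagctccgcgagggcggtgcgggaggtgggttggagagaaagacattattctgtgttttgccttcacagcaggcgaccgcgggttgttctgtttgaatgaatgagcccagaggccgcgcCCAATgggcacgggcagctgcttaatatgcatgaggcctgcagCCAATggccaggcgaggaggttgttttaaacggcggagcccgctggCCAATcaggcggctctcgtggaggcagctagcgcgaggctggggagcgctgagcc
Hmga2, chr10:120476420-120476719, minus strand: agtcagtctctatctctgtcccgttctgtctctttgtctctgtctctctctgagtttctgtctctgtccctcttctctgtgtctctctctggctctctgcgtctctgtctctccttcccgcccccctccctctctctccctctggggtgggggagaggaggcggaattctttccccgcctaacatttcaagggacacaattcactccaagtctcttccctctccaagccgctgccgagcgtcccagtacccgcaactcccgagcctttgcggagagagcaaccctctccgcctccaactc
CCAAT was searched on both strands. It occurred 3 times in the Hmgb1 promoter, first bases at -86, -42 and -11 from the start, 4 times in that of Hmgb2, at -243, -198, -73 and -11, and 3 times in that of Hmgb3, at -94, -51 and -5, all in the direction of transcription. The promoters of Hmga1 and Hmga2 and a second Hmgb1 promoter held 0 matches. Of 32851 promoters of the same length, 37.4% held at least 1 match and 3.37% held at least 3. Another motif searched, TTTGAA, was not shared by the HMGB genes. It occurred 2 times in the Hmgb2 promoter, 1 time in that of Hmgb3 and 0 times in both Hmgb1 promoters, where 17.9% hold at least 1. The promoters of Hmga1 and Hmga2 held 0. A match is a description of the letters and shows no binding in these cells. TATAAA was absent from these windows of all 5 genes, where 13.6% of promoters hold it. GGGCGG occurred 4 times in the Hmga1 promoter and 4 times in the second Hmgb1 promoter, where 10.7% hold at least 3. It occurred 1 time each in the promoters of Hmga2, Hmgb2 and Hmgb3, and 0 times in the first Hmgb1 promoter.

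The same measure of likeness was applied to the other members. Nearest to Hmgb2 over the 9 libraries was Ptma, the prothymosin gene, at a root mean square difference of 0.0686 in log2, followed by Nop58, a nucleolar protein gene, Bfsp2, Smc3, a cohesin subunit, and Pck2. Hmgb1 was the gene at place 11 for Hmgb2 among 10821 genes. Nearest to Hmgb1 were Kif18b, a mitotic kinesin, at 0.0839, Impdh1, which makes guanine nucleotides, Incenp, a partner of Aurora kinase B, Pabpc4 and Fcho1. Nearest to Hmgb3 were Ddx11, Mthfd1l, Rltpr, Rcc1 and Mcm5, of which Mcm5 is part of the replicative helicase. For Hmga1 the nearest were Tnk2, Gatad2b, Elmsan1, A430078G23Rik and Prrc2b, with Tnk2 at 0.128, while the spread of Hmga1 itself was only 0.252. Of each 5, 1 was also among the nearest 5 on normalised FPKM for Hmgb1, and 2 were for each of Hmga1, Hmgb2 and Hmgb3. On that table Kif18b came at place 784 and Fcho1 at place 614 for Hmgb1, so these neighbours depended on the table. They are descriptions over libraries that share groups and whose depth is unknown.

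Proliferation markers also stood higher in the mutant groups on average. All 27 were tested, none passed on normalised FPKM, and 25 lay above 0 in Ts1Rhr and 27 in HMGN1_OE against WT, with medians of 0.63 and 0.66. Of all tested genes, 59.9% lay above 0 in Ts1Rhr and 72.7% in HMGN1_OE on this table. The summed normalised FPKM of the 27 markers ranged from 2409 to 2836 in Ts1Rhr, from 2566 to 3222 in HMGN1_OE and from 1503 to 2374 in WT, so the mutant libraries lay above WT. On raw FPKM, 16 of the 27 rose in Ts1Rhr, where 4.29% of all tested genes did, and none passed in HMGN1_OE. Among the 16, Top2a, the topoisomerase of mitotic chromosomes, rose by 0.83 in log2 (limma, adjusted p = 0.0445). Cohesin, condensin and CTCF, which also shape chromosomes, gave 0 of 16 on normalised FPKM and 8 of 16 higher on raw FPKM in Ts1Rhr, among them Smc3 by 0.77 (limma, adjusted p = 0.0401). Both raw counts became 0 without WT replicate 1, WT replicate 3 or any 1 Ts1Rhr library, and the 8 became 5 without WT replicate 2 or HMGN1_OE replicate 1. Myeloid markers went the other way, with all 22 tested genes below 0 in both mutant groups and none past the threshold on normalised FPKM. On raw FPKM, 7 of the 22 fell in Ts1Rhr, where 4.56% of all tested genes did. Among the 7, Csf1r, a receptor of macrophages, fell by 1.12 in log2 (limma, adjusted p = 0.033). The 7 became 0 without WT replicate 1, WT replicate 3, Ts1Rhr replicate 2 or Ts1Rhr replicate 3, 1 without Ts1Rhr replicate 1 and 11 without HMGN1_OE replicate 3. The part of cell division and of the myeloid share in the HMGB differences was not tested.

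**Figure D4:**
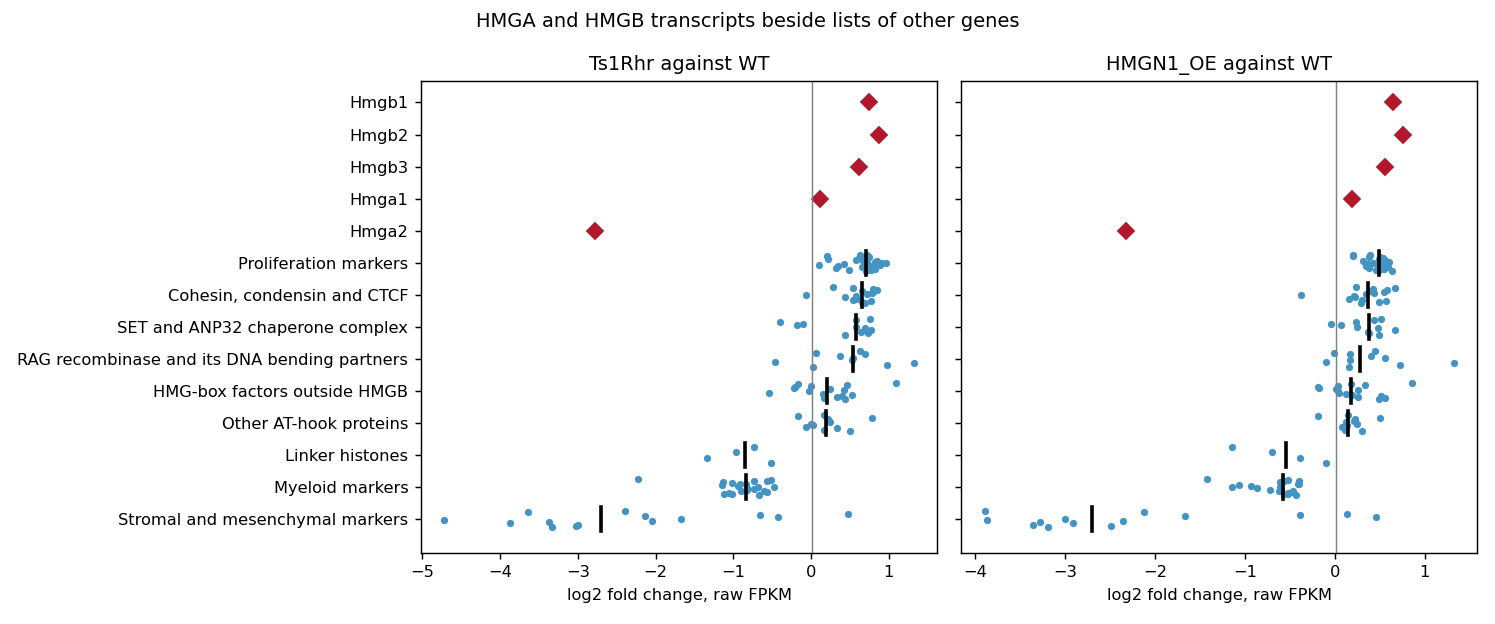
Log2 fold changes on raw FPKM in Ts1Rhr against WT (left) and HMGN1_OE against WT (right), for the 5 genes (diamonds) and for each tested gene of 9 lists (dots), with a black bar at each list's median and a grey line at the median of all tested genes. Hmgb1 and Hmgb2 lie at 0.75 and 0.87 in Ts1Rhr, beside medians of 0.70 for proliferation markers and 0.66 for cohesin and condensin, and at 0.65 and 0.76 in HMGN1_OE, above the medians there of 0.49 and 0.37. Hmga2 lies near the median of stromal and mesenchymal markers.

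Lists of genes that act near the HMGB proteins were then counted. HMGB1 and HMGB2 assist the RAG recombinase in V(D)J recombination. The V(D)J list holds Rag1, Rag2, Dntt and genes that join DNA ends, so most of it is not RAG itself. Of its 10 genes, 0 passed on normalised FPKM and 2 rose on raw FPKM in Ts1Rhr, Rag2 and Dntt. Of all tested genes, 4.29% rose on raw FPKM in Ts1Rhr. Dntt, which adds bases at the joints, averaged 127.0 ± 47.5 normalised FPKM in Ts1Rhr, 144.2 ± 11.4 in HMGN1_OE and 51.9 ± 10.5 in WT, and missed the threshold narrowly in Ts1Rhr (limma, adjusted p = 0.0565) and in HMGN1_OE (limma, adjusted p = 0.0601). HMGB2 is found in the SET complex. A wider list around SET and ANP32, which also holds genes such as Npm1 and Ncl, is not that complex alone. Of this list, 0 of 11 passed on normalised FPKM, and Set, Anp32e and Ncl rose on raw FPKM in Ts1Rhr. Without WT replicate 1, WT replicate 3, Ts1Rhr replicate 2 or Ts1Rhr replicate 3, 0 genes of either list rose on raw FPKM. Of the SET and ANP32 list, 0 did without WT replicate 2 and 1 without Ts1Rhr replicate 1. Of the receptors for extracellular HMGB1, 0 of 7 tested passed in either table. The most abundant of these was Cd24a, at 1225 ± 162 in Ts1Rhr, 1485 ± 55.4 in HMGN1_OE and 1013 ± 270 in WT.

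Other genes with the same DNA-binding folds gave few calls. On raw FPKM in Ts1Rhr against WT, 4.29% of all tested genes rose and 4.56% fell. Among 26 HMG-box genes outside the HMGB family, 16 were tested and none passed on normalised FPKM. Lef1, an HMG-box factor of lymphocyte progenitors, averaged 175.6 ± 29.3 normalised FPKM in Ts1Rhr, 177.4 ± 9.07 in HMGN1_OE and 88.3 ± 7.84 in WT. Its log2 fold change was 0.98 in Ts1Rhr against WT (limma, adjusted p = 0.0772) and on raw FPKM 1.09 (limma, adjusted p = 0.0309). None of the 12 tested genes for other AT-hook proteins passed on normalised FPKM, and 1, the Polycomb gene Cbx2, rose on raw FPKM in Ts1Rhr. Of 4 linker histones, which compete with HMG proteins for nucleosomes, none passed on normalised FPKM, while H1f0 and Hist1h1c fell on raw FPKM in Ts1Rhr (limma, adjusted p = 0.0476 and 0.0464). Of the 4 tested HMGN genes, none passed on normalised FPKM, and Hmgn1 and Hmgn3 rose on raw FPKM in Ts1Rhr. Without WT replicate 1, WT replicate 3 or Ts1Rhr replicate 3, 0 genes of these 4 lists passed on raw FPKM in Ts1Rhr, and 1 did without Ts1Rhr replicate 2. The Cbx2 call ended without any 1 WT or Ts1Rhr library, and both linker histone calls also without HMGN1_OE replicate 1.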

How the data were processed

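The authors deposited 2 FPKM tables with 1 column per library, a raw one and a normalised one, both used here. Per the submitters' processing notes, the tools were HISAT and Cufflinks 2.0.0, on mm9. No settings are given in the sources used here. Per the labels' protocols, every RNA sample received 1 µl of ERCC spike-in RNA at a dilution of 1:1000, for scaling per cell. Of 23398 rows, 92 spike-ins and 27 rows carrying dates were left out. The 10878 genes whose mean raw FPKM reached 1 were tested with limma 3.58.1 in R 4.3.3, as log2 of the normalised values (main) and as log2(raw FPKM + 0.1), using 1 fit over the 9 libraries with an intensity trend and Benjamini-Hochberg adjustment over all tested genes at a threshold of 0.05, two-sided. The pseudocount makes folds understate the change of low genes. The fit was tested on simulated data. Members and gene lists were chosen with earlier results of these data known. Named genes are the members, Hmgn1, those of each list called on normalised FPKM (at most 4) or among its 2 most abundant, and the 5 nearest in pattern to each member, with other genes named after their values were seen. Promoters and the microRNA are from RefSeq (GRCm38.p6), transcripts from GENCODE vM21.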

Additional observations from a re-analysis of the deposited data

How the results depend on the processing

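Against WT, Hmga2 was lower in both mutant groups under every setting tried except the filter of 5 FPKM, which leaves Hmga2 out. Its log2 difference in Ts1Rhr was -2.78 on raw FPKM and -1.98 with a pseudocount of 1, and in HMGN1_OE -2.32 on raw FPKM, -1.71 with a pseudocount of 1, -2.25 with a single spike-in factor for each library and -2.32 with equal library medians. Hmgb1 and Hmgb2 passed in Ts1Rhr against WT only on raw FPKM, at 0.75 and 0.87. In Ts1Rhr against HMGN1_OE, Hmgb1, Hmgb2 and Hmgb3 turned positive on raw FPKM (0.10, 0.11 and 0.059) and with the single spike-in factor (0.20, 0.21 and 0.16), and Hmga1 did so with that factor (0.022).

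Counts of called genes depended strongly on the setting. The 62 called in Ts1Rhr against WT became 963 on raw FPKM, 8 without a filter, 113 with 1 spike-in factor, 693 with equal medians and 267 with only the compared groups. The 10 in HMGN1_OE against WT became 4 on raw FPKM, 19 with a pseudocount of 1, 4 without a filter, 54 with 1 spike-in factor, 18 with only the compared groups and 19 without the trend. The 0 in Ts1Rhr against HMGN1_OE became 1 with a pseudocount of 1 and 41 with 1 spike-in factor. The cause was not tested. With the replicate number as a block, the counts were 119 in Ts1Rhr against WT and 5 in Ts1Rhr against HMGN1_OE. The numbers showed no sign of pairing. Deviations of same-numbered libraries correlated between -0.13 and 0.16, and 2 of 9 libraries correlated best with their own number. With 3 libraries a group, this does not settle whether same-numbered cultures were handled together.

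Leaving out 1 library at a time, over both tables, gave 1 to 1276 called genes in Ts1Rhr against WT, 0 to 17 in HMGN1_OE against WT and 0 to 6 in Ts1Rhr against HMGN1_OE. On normalised FPKM alone, the first was 4 without WT replicate 3 and 203 without HMGN1_OE replicate 1. In Ts1Rhr against WT, the log2 fold changes ranged from -0.030 to 0.34 for Hmga1, from -2.92 to -2.44 for Hmga2, from 0.28 to 0.88 for Hmgb1, from 0.41 to 0.99 for Hmgb2 and from 0.42 to 0.83 for Hmgb3. In HMGN1_OE against WT, the log2 fold changes ranged from 0.05 to 0.48 for Hmga1, from -2.44 to -2.05 for Hmga2, from 0.54 to 0.91 for Hmgb1, from 0.56 to 1.02 for Hmgb2 and from 0.41 to 0.95 for Hmgb3. In Ts1Rhr against HMGN1_OE, the log2 fold changes ranged from -0.35 to 0.059 for Hmga1, from -0.59 to -0.32 for Hmga2, from -0.32 to 0.23 for Hmgb1, from -0.36 to 0.31 for Hmgb2 and from -0.27 to 0.21 for Hmgb3. Sequencing depth is unknown, and 3 libraries a group set the precision.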

Other observations

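Hmgb1-rs17, a row too low to be tested, was listed at 0.525, 0.565 and 0.757 raw FPKM in Ts1Rhr, at 0.244, 0.202 and 0.489 in HMGN1_OE and at 0.0609, 0.141 and 0.183 in WT. Hmgb4, a germ cell gene of the family, was listed at 0 raw FPKM in all 9 libraries. In the remaining marker lists, Kit and Spn rose among 21 tested pro-B genes in Ts1Rhr against WT (limma, adjusted p = 0.0151 and 0.0351), Car2 rose among 3 tested erythroid and megakaryocyte genes (limma, adjusted p = 0.041), and none passed among 3 T, NK and mast cell genes or 6 dendritic cell genes. Of all tested genes, 0.423% rose in Ts1Rhr against WT on normalised FPKM. The globin genes Hba-a1, Hba-a2, Hbb-b1 and Hbb-b2 were at 0 in all libraries. The Kit call ended without WT replicate 1, WT replicate 3, Ts1Rhr replicate 2 or Ts1Rhr replicate 3, the Car2 call without these or Ts1Rhr replicate 1, and the Spn call without any 1 WT or Ts1Rhr library. Kit averaged 9.37 ± 0.671 normalised FPKM in Ts1Rhr, 8.07 ± 2.15 in HMGN1_OE and 3.06 ± 0.752 in WT.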
